A study of Homo sapiens with 6 samples.

Results

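The genes described here encode the proteins of the mitochondrial ribosome and were taken from the count table by symbol, as those starting with MRPL (large subunit) or MRPS (small subunit) and a digit. Of 79 matching symbols among 23368 genes, 75 were kept, 47 with an MRPL and 28 with an MRPS symbol. The pseudogenes MRPL42P5 and MRPL45P2 and the antisense RNA MRPL23-AS1 were left out, and MRPS26 is not analysed here. RNA sequencing measured them in the H2122 line, which was derived from a human lung adenocarcinoma, after 48 hours with an shRNA against LYCAT or with a control shRNA, both given by transfection. LYCAT, whose current symbol is LCLAT1, encodes an enzyme that exchanges fatty acyl chains on phospholipids, among them cardiolipin. Each shRNA had 3 libraries, whose values are given in the order 1 to 3. The labels do not say whether they were separate cultures. The p-values therefore measure library-to-library spread, which may be technical, and other effects of the shRNA cannot be told apart from those of lower LCLAT1.

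Mitochondrial ribosomes translate the few proteins that mitochondrial DNA encodes, all of them subunits of the oxidative phosphorylation complexes. Their ribosomal RNAs come from mitochondrial DNA, whereas all of their proteins are encoded in the nucleus, made in the cytosol and imported. The small subunit holds the messenger RNA and the decoding centre, and the large subunit holds the peptidyl transferase centre and docks at the inner membrane, where cardiolipin is concentrated. Some of the proteins have bacterial relatives, and others are specific to mitochondria. A symbol does not always name the subunit: MRPS30 and MRPS18A lie in the large subunit, and MRPS36 is annotated today as a component of the 2-oxoglutarate dehydrogenase complex.

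Library totals ran from 3118946 to 4930079 counts, and 11097 genes were abundant enough to test. LCLAT1 stood at 18.9, 22.6 and 23.6 CPM (the usual unit for counts relative to the scaled library size) with LYCAT shRNA, against 56.8, 61.2 and 65.3 CPM with control shRNA (log2 fold change -1.50, SE 0.114, edgeR adjusted p = 1.15e-18). An exact two-sided permutation test of LCLAT1 gave p = 0.1, the smallest that 3 against 3 libraries can give. All 6 epithelial markers looked for were in the table and abundant enough to test, and 4 of them, KRT8, KRT7, CDH1 and KRT18, fell, with log2 fold changes of -0.43, -0.30, -0.26 and -0.23. With DESeq2 3 of them fell, and CDH1 did not pass (adjusted p = 0.153), nor did it without any 1 LYCAT shRNA library or without control library 1 or 3 (0.0559 to 0.237). Of 15 markers of fibroblasts, endothelium and blood, 4 were abundant enough to test and 0 changed with edgeR (adjusted p under 0.05), while 1 was lower at an unadjusted p under 0.05, 1 fell with DESeq2 and 2 fell with limma-voom. PECAM1, CDH5, PTPRC, CD3E and LYZ had 0 counts in every library. The 15 markers summed to 41.0, 24.4 and 35.4 CPM of the library total with LYCAT shRNA, against 91.5, 133 and 34.4 CPM with control shRNA. The collagen gene COL1A1 held 25.8, 16.4 and 22.7 CPM of these with LYCAT shRNA, against 59.9, 82.8 and 28.2 CPM with control shRNA. Control libraries 1 and 2 were thus higher in the marker sum and in COL1A1 than the other 4 libraries, which did not hold for every marker. With control library 3 as the only control, KRT8 and KRT18 did not pass (adjusted p = 0.0845 and 0.365), and the log2 fold change of KRT18 was -0.10.

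The changes of the mitochondrial ribosomal proteins were small, and their medians lay above 0 in both subunits. In bulk RNA, a different share of cells and a different amount of RNA per cell cannot be told apart. Of the 75 genes, 74 were tested, 11 rose, 1 fell and 62 did not pass (edgeR quasi-likelihood test, adjusted p under 0.05 over all tested genes). That was 16.2% of the tested members, where 19.1% of all tested genes changed. By direction, 14.9% of the members rose, where 9.81% of all tested genes rose, and 1.35% fell, where 9.26% of all tested genes fell. The log2 fold change of LYCAT shRNA over control shRNA was above 0 for 53 of the 74 members and below 0 for 21. Its median was 0.08 over the members, with quartiles of -0.01 and 0.14, and -0.01 over all tested genes, with quartiles of -0.17 and 0.14. The LYCAT shRNA libraries all lay above the control shRNA libraries for 17 members (23.0%, where this held for 16.6% of all tested genes) and all below them for 4 members (5.41%, against 16.2% of all tested genes).

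The number of calls depended on single libraries and on the tool. It was 6 without LYCAT shRNA library 1 and 6 without LYCAT shRNA library 3, where 12.9% of all tested genes changed in either fit. It was 8 without control library 1 and 20 without control library 2, where 14.4% and 19.9% of all tested genes changed. With DESeq2 it was 6, and 10.8% of all tested genes changed. With control library 3 as the only control, which drops the libraries with the most collagen counts, 5 members and 9.94% of all tested genes changed, the median was 0.08 and 50 members were above 0. With library totals in place of scaling factors, 7 members rose and 2 fell, and 51 were above 0. Of all tested genes, 966 rose and 1127 fell with library totals, or 18.9% changed, and their median log2 fold change was -0.0195.

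**Figure D1:**
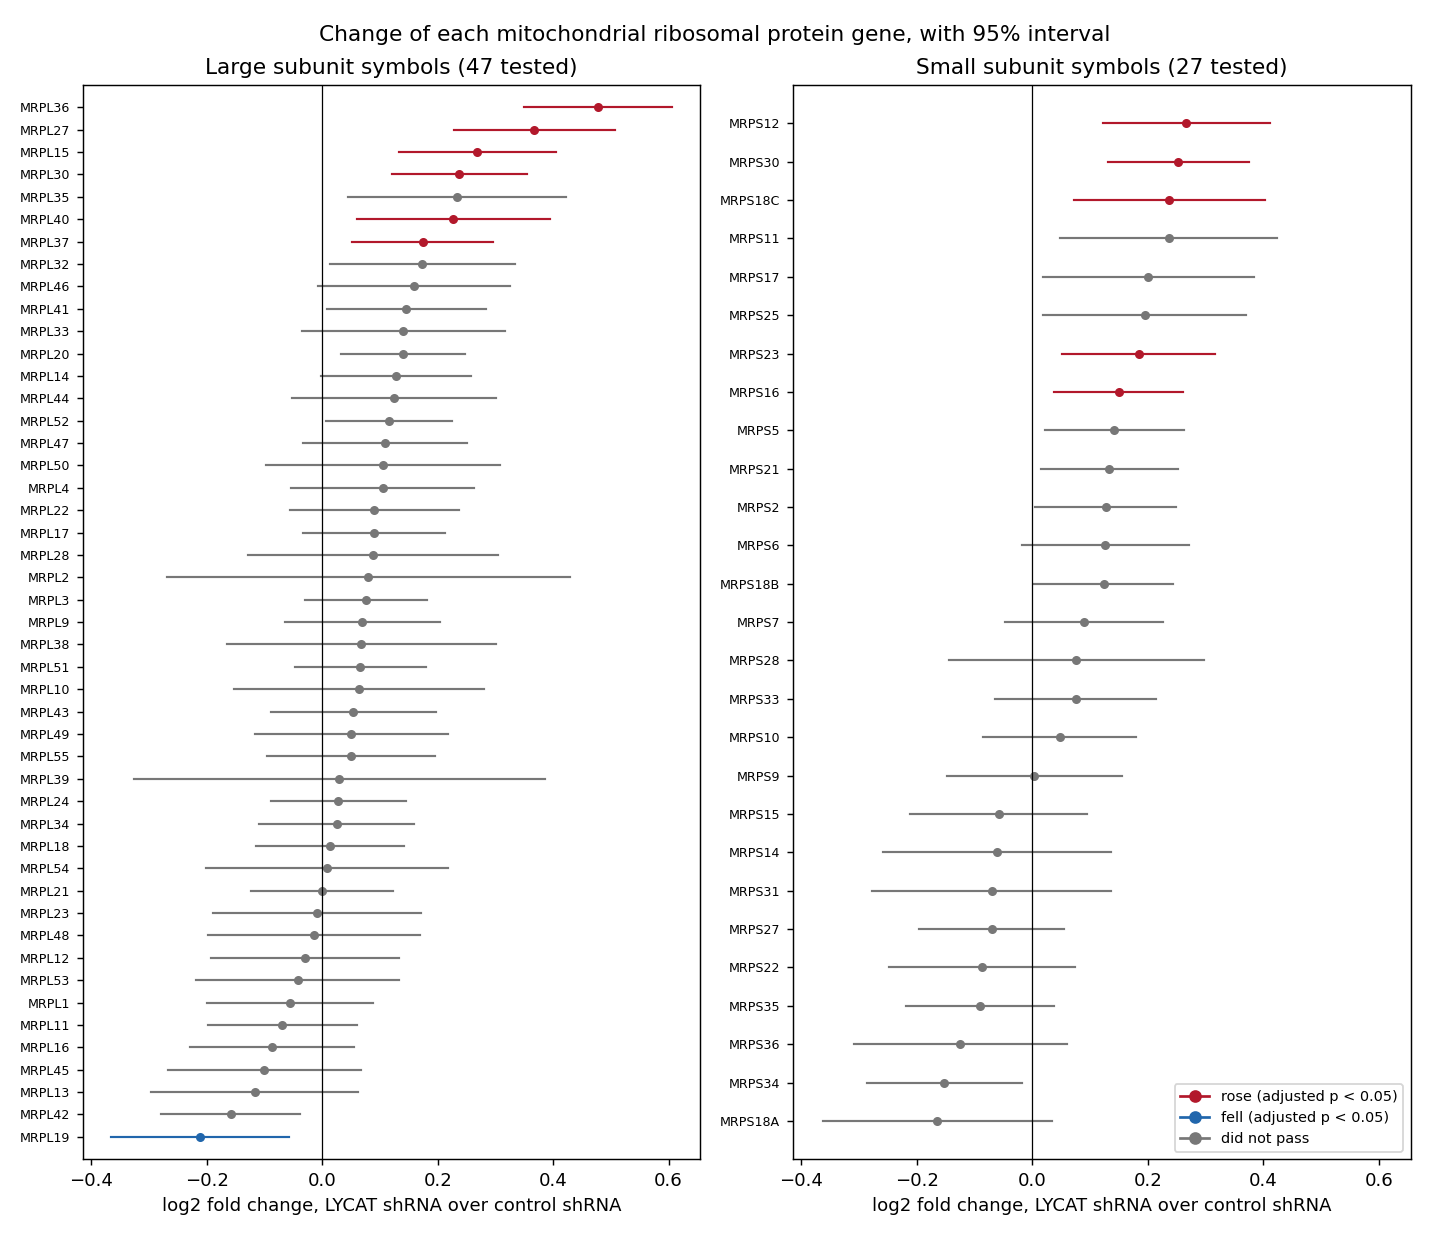
Log2 fold change of LYCAT shRNA over control shRNA (x axis) for each of the 74 tested members, in 2 panels by symbol, with the 95% interval from the edgeR fit; red members rose, the blue one fell and grey ones did not pass. MRPL36 lies farthest to the right at 0.48, and MRPL19, at -0.21, is the lone member that fell.

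Most members were measured closely enough to bound their change. The 95% interval lay within a 1.5-fold change in either direction for 73 of the 74 tested members, MRPL36 being the exception, and within a 1.2-fold change for 38. The estimate itself was under 1.2-fold for 70 members, or 94.6%. Among the 7351 tested genes with mean levels in the same range as the members (14.3 to 324 CPM), the estimate was under 1.2-fold for 78.0%, and 21.3% changed. Counts of a tested member in a library ran from 32 to 1557, and the median SE of the log2 fold change was 0.0727. The widest intervals belonged to low genes, such as MRPL39, with 14.2 ± 3.55 CPM in LYCAT shRNA cells and 14.4 ± 1.73 CPM in control shRNA cells (SD, n = 3 each), whose interval ran from -0.33 to 0.39.

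**Figure D2:**
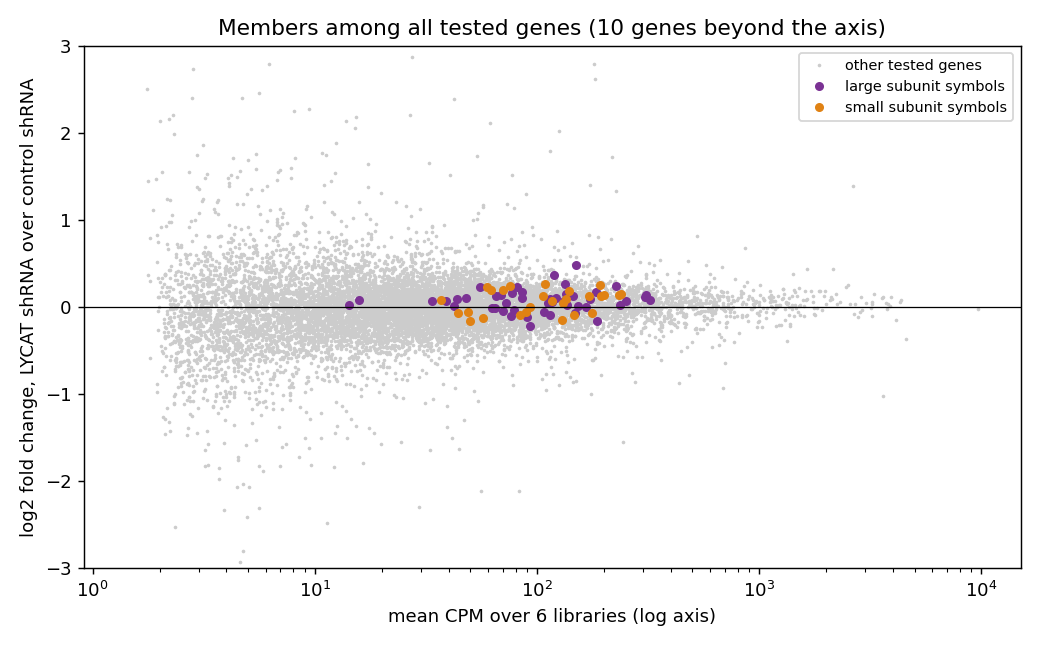
Log2 fold change of LYCAT shRNA over control shRNA (y axis) against the mean CPM over the 6 libraries (x axis, log scale) for all tested genes in grey, with large subunit symbols in purple and small subunit symbols in orange. The members form a narrow band, from -0.21 to 0.48, and 10 other genes lie beyond the plotted range of 3 in either direction.

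The summed levels of both subunits were higher with LYCAT shRNA by similar percentages, given here as a description. Summed over the 47 large subunit genes, the level was 5778, 5745 and 5954 CPM with LYCAT shRNA, against 5483, 5536 and 5488 CPM with control shRNA. Summed over the 27 tested small subunit genes, it was 3272, 3284 and 3291 CPM with LYCAT shRNA, against 3032, 3136 and 3125 CPM with control shRNA. Each sum was higher in all 3 LYCAT shRNA libraries than in any control library, by 5.88% for the large and 5.96% for the small subunit on average. The ratio of the large to the small sum was 1.77, 1.75 and 1.81 with LYCAT shRNA, against 1.81, 1.77 and 1.76 with control shRNA, and these values overlapped.

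Counted by gene, 6 large subunit members rose, 1 fell and 40 did not pass, and 5 small subunit members rose, 0 fell and 22 did not pass. These were 14.9% of the large and 18.5% of the small subunit members, where 19.1% of all tested genes changed. At an unadjusted p under 0.05 with edgeR, 11 large subunit members were higher and 2 lower, and 12 small subunit members were higher and 1 lower. The share of all tested genes at an unadjusted p under 0.05 was not counted. After adjustment, 0 small subunit members fell with DESeq2 or limma-voom. The median log2 fold change was 0.07 over the large and 0.09 over the small subunit. Set against the control mean, the median over large subunit genes was 0.07, 0.05 and 0.08 with LYCAT shRNA and -0.01, 0.00 and 0.01 with control shRNA. The same median over small subunit genes was 0.08, 0.03 and 0.08 with LYCAT shRNA and -0.02, 0.04 and 0.01 with control shRNA, so that control library 2 lay above LYCAT shRNA library 2. With MRPS30 and MRPS18A counted in the large subunit, where they lie, and MRPS36 left out, 8 of 49 large and 4 of 24 small subunit genes changed, with medians of 0.07 and 0.11.

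**Figure D3:**
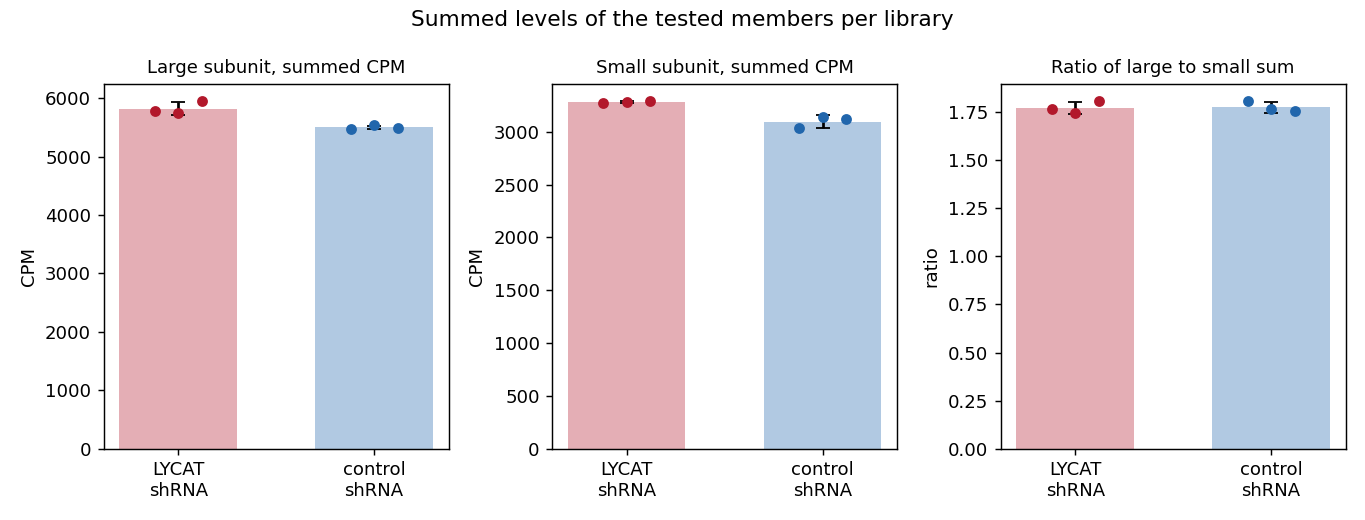
Summed CPM of the tested large subunit members, of the tested small subunit members, and the ratio of these sums (y axes, from 0), with bars for the mean of 3 libraries, error bars for the SD and points for libraries, LYCAT shRNA in red and control shRNA in blue. Both sums are higher with LYCAT shRNA, with means of 5826 and 3282 CPM against 5502 and 3098 CPM, while the ratios overlap.

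The promoters of 4 members are shown here because 3 of these genes, MRPL36, MRPL27 and MRPS30, passed under every alternative tried and MRPS12 starts close to another mitochondrial gene that moved the other way. Sequences are from RefSeq (GRCh38.p14), from 250 bases before to 50 bases after the start of the gene, 5′ to 3′ on the gene's strand. Capitals mark matches, on either strand, to short motifs of factors known at promoters of housekeeping genes. These were the ETS core CCGGAAG, the NRF1 core CGCATGCG, the YY1 core AAGATGGCG, the E-box CACGTG, the CCAAT box CCAAT and the GC box GGGCGG. None of the marked matches within these 4 promoters overlaps another.
MRPL36, chr5:1799788-1800087, minus strand: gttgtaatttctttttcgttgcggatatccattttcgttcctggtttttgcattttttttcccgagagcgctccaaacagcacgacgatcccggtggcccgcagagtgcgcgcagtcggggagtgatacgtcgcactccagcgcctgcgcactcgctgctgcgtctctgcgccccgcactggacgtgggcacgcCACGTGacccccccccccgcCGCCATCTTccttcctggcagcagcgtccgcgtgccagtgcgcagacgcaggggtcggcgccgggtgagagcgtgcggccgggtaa
MRPL27, chr17:50373135-50373434, minus strand: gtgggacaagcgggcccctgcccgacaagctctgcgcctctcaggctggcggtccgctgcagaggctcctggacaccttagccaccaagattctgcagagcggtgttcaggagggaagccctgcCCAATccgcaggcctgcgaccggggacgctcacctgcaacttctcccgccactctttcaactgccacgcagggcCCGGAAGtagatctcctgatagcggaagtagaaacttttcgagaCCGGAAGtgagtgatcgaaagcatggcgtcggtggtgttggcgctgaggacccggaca
MRPS30, chr5:44808697-44808996, plus strand: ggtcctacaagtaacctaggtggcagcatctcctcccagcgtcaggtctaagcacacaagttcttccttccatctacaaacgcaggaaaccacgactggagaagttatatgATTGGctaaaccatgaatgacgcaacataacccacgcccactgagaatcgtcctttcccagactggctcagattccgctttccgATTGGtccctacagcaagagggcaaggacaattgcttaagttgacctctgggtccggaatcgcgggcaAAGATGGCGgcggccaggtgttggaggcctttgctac
MRPS12, chr19:38930694-38930993, plus strand: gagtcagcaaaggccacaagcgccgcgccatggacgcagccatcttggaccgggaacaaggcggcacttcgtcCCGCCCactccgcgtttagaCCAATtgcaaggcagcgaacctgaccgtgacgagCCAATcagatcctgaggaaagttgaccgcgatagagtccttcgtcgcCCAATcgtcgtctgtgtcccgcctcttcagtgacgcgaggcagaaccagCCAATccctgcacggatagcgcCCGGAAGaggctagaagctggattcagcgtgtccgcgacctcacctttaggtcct
The MRPL36 window holds 1 YY1 match and 1 E-box. In the MRPL27 window lie 2 ETS matches and 1 CCAAT box, in the MRPS30 window 1 YY1 match and 2 CCAAT boxes, and in the MRPS12 window 1 ETS match, 4 CCAAT boxes and 1 GC box.

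A promoter entry was found for 66 of the 75 members. The ETS core stood in 27 of these 66 promoters (40.9%), where 20.5% of the 7989 promoters of tested genes and 10.7% of all 27305 promoters of the table hold it. The YY1 core stood in 13 (19.7%), where 4.5% of the promoters of tested genes and 1.8% of all promoters hold it. The shares in members' and in tested genes' promoters were 4.5% and 4.1% for NRF1, 9.1% and 10.6% for the E-box, 30.3% and 37.5% for the CCAAT box, and 60.6% and 71.9% for the GC box. An ETS, NRF1 or YY1 core, at least 1 of these, was present in 56.1% of members' promoters and 26.7% of those of tested genes. Of the 11 changed members with an entry, 7 had the ETS, 1 the NRF1 and 2 the YY1 core. The E-box stood in 3 of these 11, the CCAAT box in 5 and the GC box in 3. Differences between changed and other members were not tested. A match is a description of the letters and does not show that a factor binds.

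Among large subunit genes, MRPL36, the relative of the smallest protein of the bacterial large subunit, rose most. It stood at 166, 179 and 177 CPM with LYCAT shRNA, against 122, 126 and 127 CPM with control shRNA. The groups were far apart, and the log2 fold change was 0.48 (1.39-fold, SE 0.0645, edgeR adjusted p = 1.04e-08). The gene shares no exon bases with other annotated genes and has no pseudogene named after it. Of its 10 nearest tested neighbours on chromosome 5, 4 rose and 0 fell, where 9.81% of all tested genes rose and 9.26% fell. The median log2 fold change of the 10 was 0.25, the highest among the neighbourhoods of the 12 changed members. Whether the neighbourhood plays a part in the result was not tested. The complex I subunit NDUFS6 lies next to MRPL36 and was chosen after its values were seen. Its level was 279, 277 and 271 CPM with LYCAT shRNA, against 231, 270 and 245 CPM with control shRNA (log2 fold change 0.15, edgeR adjusted p = 0.0566, and 0.00175 to 0.326 over the alternatives).

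MRPL27, whose bacterial relative reaches into the peptidyl transferase centre, rose 1.29-fold. Its level was 134, 137 and 133 CPM with LYCAT shRNA, against 109, 109 and 95.1 CPM with control shRNA (log2 fold change 0.37, SE 0.0701, edgeR adjusted p = 4.04e-05). The groups did not overlap. MRPL15, on chromosome 8, stood at 148, 131 and 157 CPM with LYCAT shRNA, against 122, 121 and 119 CPM with control shRNA (log2 fold change 0.27, SE 0.0682, edgeR adjusted p = 0.00224). The LYCAT shRNA libraries spread more for MRPL15 than the controls, and without LYCAT shRNA library 3 the adjusted p was 0.058. MRPL30 stood at 229, 248 and 260 CPM with LYCAT shRNA, against 197, 216 and 212 CPM with control shRNA (log2 fold change 0.24, SE 0.0587, edgeR adjusted p = 0.00168). Both are relatives of bacterial proteins of the same number, L15 and L30. Of the exon bases of MRPL30, 19.5% are shared with another annotated gene, so that reads there may not all be counted for MRPL30.

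MRPL40 and MRPL37, large subunit proteins specific to mitochondria, rose by less. MRPL40 stood at 84.9, 96.4 and 83.6 CPM with LYCAT shRNA, against 67.9, 84.3 and 72.2 CPM with control shRNA (log2 fold change 0.23, edgeR adjusted p = 0.0459). It was the member among the 12 whose groups overlapped, and it passed under 5 of 16 alternatives, with adjusted p from 0.00304 to 0.256. With 1 library left out it passed only without control library 2. MRPL37 stood at 183, 202 and 202 CPM with LYCAT shRNA, against 170, 173 and 177 CPM with control shRNA (log2 fold change 0.17, edgeR adjusted p = 0.0339), and it passed under 10 of 16 alternatives, but not without LYCAT shRNA library 2 or 3 or control library 1 (adjusted p 0.096 to 0.155).

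MRPL19, the relative of bacterial L19, was the member that fell. Its level was 81.9, 80.6 and 95.1 CPM with LYCAT shRNA, against 102, 96.7 and 101 CPM with control shRNA (log2 fold change -0.21, SE 0.0776, edgeR adjusted p = 0.0438). All LYCAT shRNA libraries lay below the controls, library 3 by a small margin. It passed under 6 of 16 alternatives, but not without LYCAT shRNA library 1 or 2 or control library 1 or 3 (adjusted p 0.119 to 0.227), and its adjusted p was 0.153 with offsets corrected for GC content and transcript length. MRPL42, which was nearest to the threshold among the members that did not pass, stood at 175, 173 and 179 CPM with LYCAT shRNA, against 195, 189 and 206 CPM with control shRNA (log2 fold change -0.16, edgeR adjusted p = 0.0538). MRPL42 passed with library totals (adjusted p = 0.0321), at a mean of at least 5 CPM (0.0449), without control library 2 (0.0175) and with control library 3 alone (0.0446). With offsets corrected for GC content and length its log2 fold change was -0.01 (adjusted p = 0.928).

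**Figure D4:**
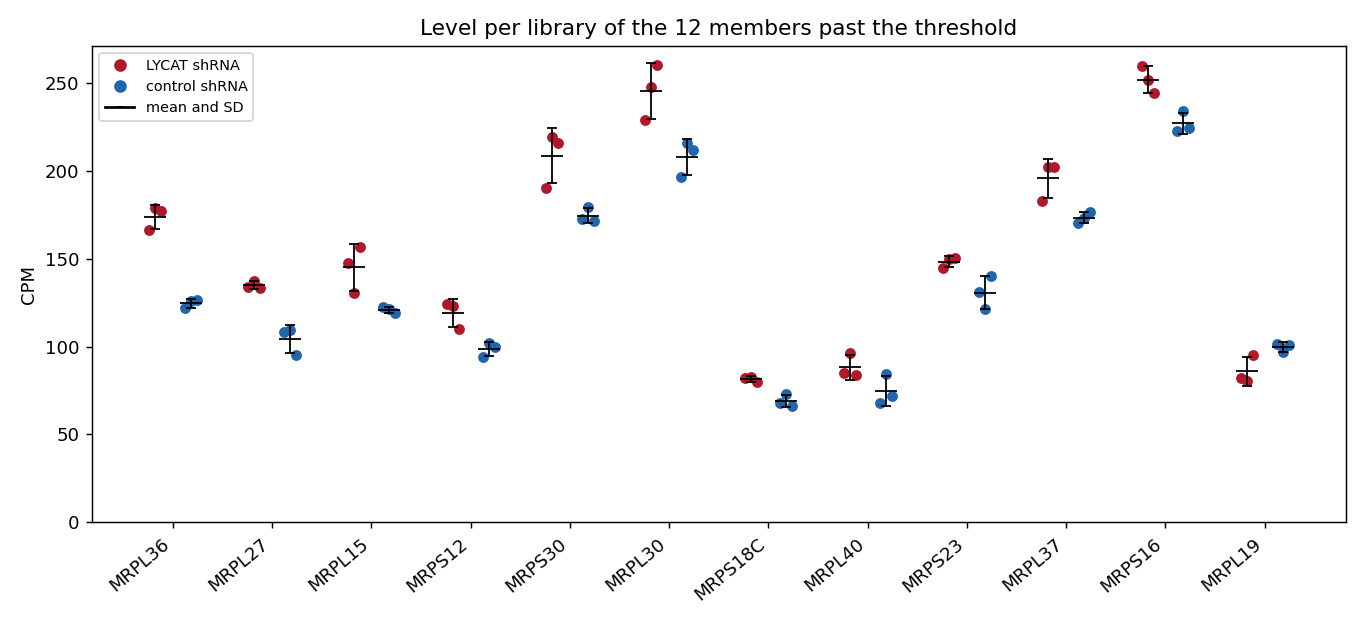
CPM (y axis, from 0) in each library for the 12 members past the threshold, ordered by log2 fold change; red points are LYCAT shRNA libraries, blue points control shRNA libraries, and black bars give the mean and SD of 3 libraries. MRPL36 shows the widest gap, with means of 174 and 125 CPM, and the points of MRPL40 overlap.

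Among the genes with small subunit symbols, MRPS12 and MRPS30 rose most. MRPS12, a relative of the bacterial protein S12 at the decoding centre, stood at 124, 123 and 110 CPM with LYCAT shRNA, against 94.3, 102 and 99.98 CPM with control shRNA (log2 fold change 0.27, SE 0.0727, edgeR adjusted p = 0.00472). The groups did not overlap, though without LYCAT shRNA library 1 the adjusted p was 0.066. MRPS30, which despite its symbol is a mitochondria-specific protein of the large subunit, stood at 191, 219 and 216 CPM with LYCAT shRNA, against 173, 179 and 171 CPM with control shRNA (log2 fold change 0.25, SE 0.0613, edgeR adjusted p = 0.00138). Its groups did not overlap, and it shares no exon bases with other annotated genes.

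MRPS23 and MRPS16 rose with smaller margins. MRPS23, a protein specific to mitochondria, stood at 145, 150 and 150 CPM with LYCAT shRNA, against 131, 121 and 140 CPM with control shRNA (log2 fold change 0.18, edgeR adjusted p = 0.0402). MRPS16, a relative of bacterial S16, stood at 259, 252 and 244 CPM with LYCAT shRNA, against 223, 234 and 224 CPM with control shRNA (log2 fold change 0.15, edgeR adjusted p = 0.0490). Neither gene's groups overlapped. They passed under 7 and 4 of 16 alternatives, with adjusted p from 0.0141 to 0.597 for MRPS23 and from 0.0165 to 0.219 for MRPS16, and 3 annotated pseudogenes are named after MRPS16. With 1 library left out, MRPS23 passed only without control library 3 and MRPS16 only without control library 2.

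The MRPS18 genes are 3 paralogs whose proteins occupy different sites, MRPS18A in the large and MRPS18B and MRPS18C in the small subunit, and they had different estimates. MRPS18C stood at 82.3, 82.9 and 79.9 CPM with LYCAT shRNA, against 67.9, 73.2 and 66.2 CPM with control shRNA, and it rose (log2 fold change 0.24, edgeR adjusted p = 0.0325). MRPS18B stood at 208, 200 and 201 CPM with LYCAT shRNA, against 175, 196 and 188 CPM with control shRNA, and did not pass (log2 fold change 0.12, edgeR adjusted p = 0.148). MRPS18A stood at 41.9, 47.7 and 51.6 CPM with LYCAT shRNA, against 54.7, 52.7 and 50.2 CPM with control shRNA (log2 fold change -0.16, edgeR adjusted p = 0.270). The groups were apart for MRPS18C and MRPS18B and overlapped for MRPS18A, and the differences between the paralogs' changes were not tested. MRPS18C passed under 8 of 16 alternatives and, with 1 library left out, only without control library 2. Of its exon bases 40.2% lie opposite another gene, as do 47.0% of those of MRPS18A. The sources used here give no strand setting for the counting, so reads of such partners could not be told apart.

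Other members of known position did not pass. MRPL12 and MRPL10, which form the stalk that recruits translation factors, had log2 fold changes of -0.03 (95% interval -0.19 to 0.13) and 0.06 (-0.15 to 0.28). Of the exon bases of MRPL12, 68.2% are shared with another annotated gene, so that reads there may not all be counted for MRPL12. MRPL11, at the base of the stalk, had -0.07 (-0.20 to 0.06). MRPS36, the component of the dehydrogenase complex, stood at 54.7, 53.2 and 56.5 CPM with LYCAT shRNA, against 57.7, 60.0 and 62.1 CPM with control shRNA (log2 fold change -0.12, edgeR adjusted p = 0.384). Its groups did not overlap although it did not pass.

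Levels between genes were compared as CPM per kb of an annotated transcript and ordered by the mean over all 6 libraries. The genes spanned a wide range on this scale, with MRPL52 at the top with 560, 507 and 556 CPM per kb with LYCAT shRNA, against 463, 534 and 504 CPM per kb with control shRNA. MRPL20, a relative of bacterial L20, followed with 438, 429 and 482 CPM per kb with LYCAT shRNA, against 425, 400.0 and 399.6 CPM per kb with control shRNA, which does not reach the values of MRPL52 in the same group. MRPL24 came next in this order, with means of 272 CPM per kb in LYCAT shRNA cells and 266 CPM per kb in control shRNA cells, and its values overlapped those of MRPL21, the gene after it, in both groups. MRPL36 averaged 285 CPM per kb in LYCAT shRNA cells, above MRPL24 but with overlapping libraries, and 204 CPM per kb in control shRNA cells, below MRPL24 and MRPL21. Among small subunit symbols MRPS21, MRPS33 and MRPS18B were highest, with means of 199, 140 and 132 CPM per kb in LYCAT shRNA cells, against 182, 132 and 122 CPM per kb in control shRNA cells. The range of MRPS18B overlapped that of MRPS33 in LYCAT shRNA cells. MRPS34, chosen after its values were seen, averaged 119.6 CPM per kb in LYCAT shRNA cells, below MRPS18B, and 133 CPM per kb in control shRNA cells, where its libraries overlapped those of MRPS33.

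The lowest levels per length were those of MRPL50, MRPL39 and MRPL42 among large subunit genes, with means of 14.8, 12.8 and 11.3 CPM per kb in LYCAT shRNA cells, against 13.9, 12.9 and 12.6 CPM per kb in control shRNA cells. MRPL50 and MRPL39 overlapped each other in both groups. The place of MRPL42 rests on an annotated transcript of 15582 bases, and per library it held 173 to 206 CPM. MRPS23, MRPS14 and MRPS25 were lowest among small subunit symbols by the mean over all libraries, with 26.4, 22.5 and 16.5 CPM per kb in LYCAT shRNA cells, against 23.3, 23.7 and 14.3 CPM per kb in control shRNA cells. For MRPS23 and MRPS25 the transcripts used are also long, at 5621 and 4586 bases. MRPS24 was listed at 0 counts in all 6 libraries and was not tested. The table also lists the readthrough transcript URGCP-MRPS24 at 0 in every library, and that gene shares exon bases with MRPS24.

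**Figure D5:**
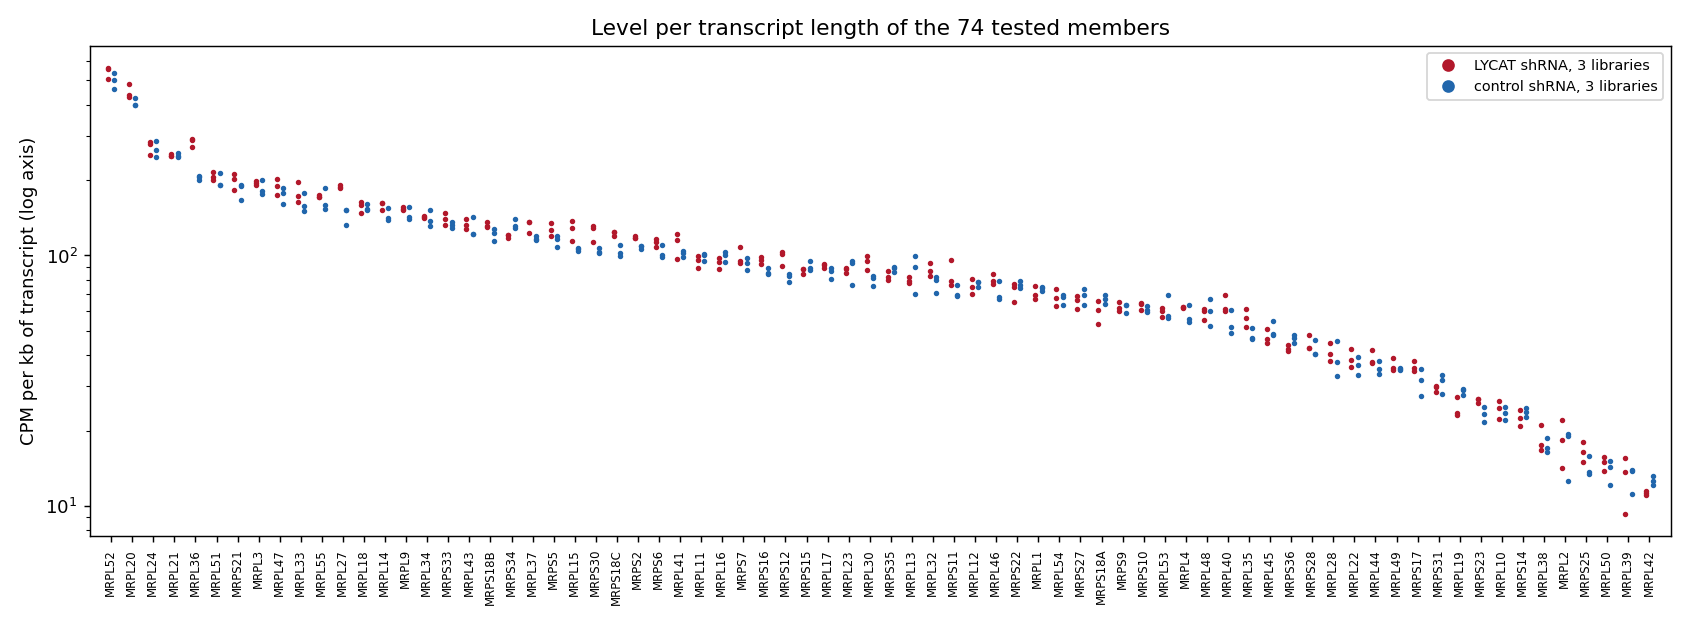
CPM per kb of transcript (y axis, log scale) in each library for the 74 tested members, ordered by their mean, with LYCAT shRNA libraries in red and control shRNA libraries in blue. MRPL52 and MRPL20 stand above the rest, and within most genes the colours overlap.

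Some of these genes start close to another gene on the opposite strand, and the members and such partners were set side by side. How many of all tested genes have such a partner was not counted. A tested partner whose start lies within 1000 bases, pointing away, was found for 15 members, 5 of which had changed. Of the 15 partners, 1 rose, 2 fell and 12 did not pass, or 20% changed, where 19.1% of all tested genes did. The member and the partner had the same sign in 7 of the 15. MRPL46 and MRPS11 are partners of each other and count as 2 of the 15, with log2 fold changes of 0.16 and 0.24 (edgeR adjusted p = 0.188 and 0.0675). Both passed without control library 2 (0.0364 and 0.0275), and MRPS11 also without LYCAT shRNA library 2 (0.0456). MRPS12 starts 181 bases from SARS2, which encodes the mitochondrial seryl-tRNA synthetase and was chosen after its values were seen. SARS2 stood at 21.1, 23.9 and 21.95 CPM with LYCAT shRNA, against 31.5, 28.8 and 27.8 CPM with control shRNA, and it fell (log2 fold change -0.41, SE 0.131, edgeR adjusted p = 0.0183, and 0.0146 to 0.288 over the alternatives) where MRPS12 rose. SARS2 did not pass without LYCAT shRNA library 1 or 3 or control library 1, where the adjusted p was 0.069 to 0.0991. They share 16.3% of the exon bases of MRPS12 on opposite strands.

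Genes that work with the mitochondrial ribosome were read from lists chosen by function, and their counts stand beside the 19.1% of all tested genes that changed with edgeR. Of 8 genes with other symbols, 7 of them ribosomal proteins and the last, OXA1L, the insertase to which the ribosome docks, 1 rose and 7 did not pass. The one that rose was AURKAIP1, a small subunit protein, at 263 ± 16.97 CPM in LYCAT shRNA cells and 236 ± 15.8 CPM in control shRNA cells (SD, n = 3 each; log2 fold change 0.16, edgeR adjusted p = 0.0397). Its adjusted p was 0.128 to 0.268 without LYCAT shRNA library 1 or 3 or control library 1, and 0 of the 8 genes passed with DESeq2 or limma-voom. The median over the 8 was 0.08. Of 27 genes of ribosome assembly and ribosomal RNA modification, 1 fell and 26 did not pass. Their median was 0.001. At an unadjusted p under 0.05, 3 were higher and 1 was lower with edgeR, and 0 rose with DESeq2 or limma-voom after adjustment. METTL17, which acts in assembly of the small subunit, was the one that fell, at 25.2 ± 4.09 CPM in LYCAT shRNA cells and 32.7 ± 0.707 CPM in control shRNA cells (log2 fold change -0.38, edgeR adjusted p = 0.0229). METTL17 did not pass with DESeq2 (adjusted p = 0.135), with control library 3 as the only control (0.187), or without LYCAT shRNA library 1 or 2 or control library 1 or 3 (0.0592 to 0.242).

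Among 15 mitochondrial translation factors 1 rose and 14 did not pass, and their median was 0.01. Over all tested genes, 19.1% changed. TUFM, the elongation factor that brings aminoacyl-tRNA to the ribosome, rose to 338 ± 11.6 CPM in LYCAT shRNA cells, against 291 ± 8.74 CPM in control shRNA cells (SD, n = 3 each; log2 fold change 0.22, SE 0.0525, edgeR adjusted p = 0.00125), and it passed under every alternative tried. Of all tested genes, 1089 rose with edgeR, 1026 with limma-voom and 635 with DESeq2. Of 6 genes of mitochondrial transcription 3 rose with edgeR, 2 with limma-voom and 0 with DESeq2, and their median was 0.28. They were POLRMT, the mitochondrial RNA polymerase, and the MTERF family genes MTERF and MTERFD3, with log2 fold changes of 0.53, 0.52 and 0.41 (edgeR adjusted p = 0.0435, 0.0176 and 0.0260). All 3 had low levels, between 6.65 and 27.4 CPM in any library, and each lost its call without some library. POLRMT did not pass without any 1 LYCAT shRNA library or control library 3 (adjusted p 0.0621 to 0.308), MTERF without LYCAT shRNA library 1 or control library 1 (0.18 to 0.258), and MTERFD3 without library 1 or 3 of either group (0.0521 to 0.142). The family genes MTERFD1 and MTERFD2, counted above with the assembly genes, did not pass. Their log2 fold changes were -0.23 and -0.07 (edgeR adjusted p = 0.304 and 0.795). For comparison, of 75 tested protein genes of the cytosolic ribosome, 17 rose and 2 fell. Of all tested genes, 9.81% rose and 9.26% fell. The median over the 75 cytosolic genes was 0.04. The difference between these lists and the mitochondrial ribosomal proteins was not tested.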

How the data were processed

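RNA was sequenced from H2122 cells with LYCAT shRNA or control shRNA, in 3 libraries each. The authors deposited raw counts per gene symbol. The tools featureCounts 1.5.1, BWA 0.7.15, Bowtie2 and bcl2fastq 2.17 and the builds hg19 and mm10 are named, with no role given, per the submitters' processing notes. No strand setting is given in the sources used here. Columns named cycat were read as a misspelling of LYCAT.

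Genes were filtered with filterByExpr by group, scaled with TMM factors (0.993 to 1.01) and compared with the quasi-likelihood F test of edgeR 4.0.16 in R 4.3.3 (robust=TRUE, group as the only term), with Benjamini-Hochberg adjustment over all 11097 tested genes and a threshold of 0.05. An SE is the log2 fold change divided by the square root of F. Fits were tested on simulated data. Alternatives were other scalings and filters, DESeq2 1.42.0, limma-voom (limma 3.58.1), a replicate block, robust=FALSE, GC and length offsets, subunits by position and leaving out libraries; control library 3 as the only control was added after seeing the data. Transcript lengths, overlaps and neighbours came from GENCODE v29 and RefSeq (GRCh38); which build the counts used is not stated by the sources at hand. The length is that of the RefSeq-matched transcript of median length.

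The members and lists were chosen with earlier results of these data known. Members past the threshold, fixed members of known position and the 3 highest and 3 lowest per length in each subunit are named, as are changed genes of the lists. NDUFS6, SARS2, COL1A1, CDH1, MRPS34 and the pair MRPL46 and MRPS11 were chosen after their values were seen.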

Additional observations from a re-analysis of the deposited data

How the results depend on the processing

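LCLAT1 was lower and passed under all alternatives run. MRPL36, MRPL27 and MRPS30 passed under all 16, MRPL30 and MRPL15 under 15 and MRPS12 under 14. The count of changed members was 12, of which 11 rose and 1 fell. With DESeq2 it was 6 (6 rose, 0 fell; 4 large, 2 small), and with control library 3 as the only control, added after seeing the data, 5 (4 rose; 4 large, 1 small; large subunit median 0.0937). With library totals 7 rose and 2 fell, and 3 small subunit genes changed. The number that fell was 0 without a filter, with limma-voom, with robust=FALSE and with GC and length offsets, and 2 with a mean of at least 5 CPM. Of all genes in these fits, in the same order, 1032, 959, 1008, 913 and 1008 fell. The shares that changed in either direction were 13.1%, 17.9%, 18.4%, 19.1% and 20.4%. With 1 library left out, 6 to 20 members changed, 5 to 17 rose and 0 to 3 fell; 4 to 12 were large and 1 to 8 small subunit genes, and the medians ran from 0.063 to 0.085 (large) and 0.0738 to 0.121 (small). With the replicate block 10 members changed, 3 of them small subunit genes. Of all tested genes, 19.1% changed in the main fit, 18.4% with the replicate block, 18.9% with library totals and 10.8% with DESeq2. With 1 library left out, 12.9% to 19.9% of all tested genes changed. The replicate numbers were not taken as pairs, since deviations of same-numbered libraries correlated at 0.005, -0.06 and -0.05. Depth limits the lowest genes most, and MRPL39 had the widest interval. No called value changed sign under an alternative.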

Other observations

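Rows of the family outside the comparison were near 0. The pseudogene MRPL42P5 had 4, 5 and 6 counts with LYCAT shRNA, against 7, 8 and 7 with control shRNA. MRPL45P2 had 12, 3 and 6 counts with LYCAT shRNA, against 15, 11 and 6 with control shRNA, and MRPL23-AS1 had 0 in all 6. Annotated pseudogenes are named after 33 of the 75 members, 70 pseudogenes in all, so that reads of these members may not all be counted for them. Exon bases of 41 members are shared with another annotated gene.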
